A study of Mus musculus with 12 samples.

Results

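The response of mouse macrophages to all-trans retinoic acid (RA) was compared between IL4-stimulated and naive cells by taking, for each gene, the RA effect in IL4 cells minus the RA effect in naive cells. This difference of differences, called the interaction below, was computed over all 12 libraries for the 12116 of 13553 genes with at least 0 log2 CPM (counts relative to the library total) in at least 3 libraries; 1437 genes fell under that filter. The gene just inside the filter had a third-highest value of 0.00118 log2 CPM and the gene just outside it -0.000176. The macrophages were grown with 10 ng/mL M-CSF from bone marrow of male C57BL/6 mice, wild-type in genotype. All 4 groups thus share genotype, sex and growth factor, and each holds 3 libraries, numbered 2, 3 and 4. IL4 RA cells were given 20 ng/mL IL4 for 24 h, washed, and given 1 µM RA for 6 h. IL4 vehicle cells had the same IL4 exposure and then DMSO for 6 h. Naive RA cells had 24 h in medium without IL4 and then 1 µM RA, and naive vehicle cells had neither agent, only DMSO. The cells are macrophages differentiated in culture, and the labels leave unsaid if the 3 replicates of a group were separate animals or separate cultures, so a p-value here reflects only how far these libraries spread, which may be technical.

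RA binds nuclear RA receptors, which pair with retinoid X receptors on DNA and recruit coactivators to target genes such as Rarb, Hic1 and the RA-degrading enzyme gene Cyp26b1. IL4 acts through the IL4 receptor and the transcription factor STAT6, and drives the alternative activation programme of macrophages, with Arg1, Retnla and Chil3 among its known genes. Arg1, which encodes arginase 1, is known to respond to both signals in macrophages.

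The labels were checked first. The summed level of the IL4 marker genes was 922 to 1175 CPM in IL4 RA, 729 to 915 in IL4 vehicle, 9.02 to 11.3 in naive RA and 9.98 to 11.0 in naive vehicle libraries. The summed level of Rarb, Hic1 and Cyp26b1 was 27.9 to 31.9 CPM in IL4 RA, 1.82 to 2.12 in IL4 vehicle, 5.26 to 6.39 in naive RA and 0.421 to 0.690 in naive vehicle libraries. All 15 macrophage markers were measured, with summed levels of 27912 to 29341, 25874 to 28763, 42980 to 47308 and 43367 to 44988 CPM in the same order. Megakaryocyte markers (3 of 4 measured) summed to 41.8 to 58.2 CPM in IL4 RA and 20.9 to 33.6 in IL4 vehicle libraries. In naive RA and naive vehicle libraries they summed to 45.5 to 64.3 and 26.2 to 33.1 CPM. The sum, most of it Pf4, was thus higher with RA in both states. Pf4 and Ppbp were each higher with RA without overlap in both states, while Itga2b overlapped between RA and vehicle in both. The part of these markers in any result was not tested. Eosinophil markers (Ccr3 and Siglecf, 2 of 4 measured) summed to 86.2 to 104 CPM in IL4 RA, 68.8 to 86.0 in IL4 vehicle, 9.27 to 10.8 in naive RA and 8.61 to 9.83 in naive vehicle libraries, so the lowest IL4 RA library was just above the highest IL4 vehicle one while the naive groups overlapped. Dendritic cell markers (4 of 6 measured) summed to 73.1 to 106, 73.1 to 99.5, 5.13 to 8.82 and 5.00 to 8.09 CPM in the same order of groups. The sum, most of it Ccr7, was higher in IL4 cells and overlapped between RA and vehicle in each state. Its other members differed: in IL4 cells Zbtb46 was lower and Clec9a higher with RA, without overlap. Xcr1 was higher with RA in naive cells without overlap, and was not higher in IL4 RA than in naive RA. The part of these markers in the results was not tested either. In bulk RNA, fewer cells of a type and less RNA per cell cannot be told apart. The summed signal per library lay between 950904 and 1056493 CPM, and the sequencing depth is unknown because no counts were analysed here.

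RA changed many genes in each state, and the changes were mostly alike in direction. RA effects were called (adjusted p under 0.05, limma) for 1416 genes in IL4 cells (11.7% of the genes tested), 788 higher (6.5%) and 628 lower (5.18%), and for 759 genes in naive cells (6.26%), 392 higher (3.24%) and 367 lower (3.03%). The 518 genes called in both states made up 36.6% of the IL4 list and 68.2% of the naive list, and 516 of them had the same sign. The other 2 were Abcb1b and Inf2. Of the 898 genes called in IL4 cells alone, 783 (87.2%) had the same sign in naive cells, and the interaction was called for 24 of the 898. Of the 241 called in naive cells alone, 215 (89.2%) had the same sign in IL4 cells, and the interaction was called for 2. It was called for 20 of the 518 genes called in both states, and for 0.38% of all genes tested. Most genes called in a single state thus had no called difference between the states. The interaction and the RA effects come from the same libraries, so these counts are no separate test. The RA effects correlated at Pearson r = 0.604 across all 12116 genes, which are not independent replicates and share the same libraries. Over the genes called in both states the median size of the RA effect was 0.38 (log2) in IL4 cells and 0.333 in naive cells, and 288 of the 516 same-sign genes had the larger effect in IL4 cells.

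**Figure D1:**
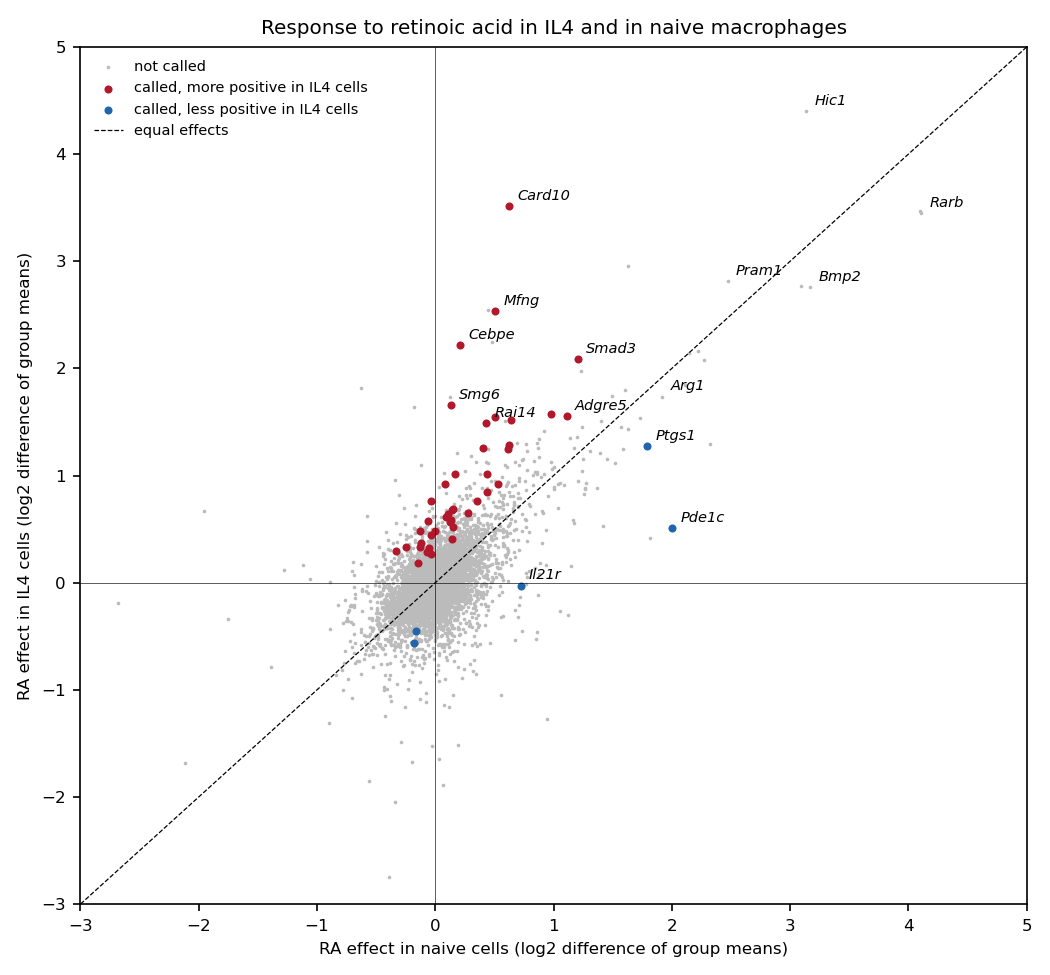
RA effect per gene in naive cells (x) and in IL4 cells (y), as log2 differences of group means (n = 3 libraries per group). The 41 genes with a called positive interaction lie above the dashed line of equal effects and the 5 with a called negative one below it, while Hic1, Rarb, Bmp2, Pram1 and Arg1 are large in both states and were not called.

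The interaction itself was called for 46 genes (0.38% of those tested), 41 with the more positive RA effect in IL4 cells (0.338%) and 5 with the more negative one (0.0413%). At an unadjusted p under 0.05 the number was 1006 (8.3%). The called interactions had a median size of 0.54 and ranged in size from 0.27 to 2.90 on the log2 scale (the 2.90 is that of Card10, whose naive vehicle libraries are at the lowest value of the table), with 6 at or above 1 and 1 at or below -1. The median over all genes was 0.0074, and the median standard error (SE) was 0.0957, against 0.0677 for the RA effect in IL4 cells alone. RA raised all 41 of the positive genes in IL4 cells, against 6.5% of all genes tested. In naive cells RA raised 16 of them, against 3.24% of all genes tested, and lowered 2, against 3.03%. It left 23 uncalled, 11 of the 23 with an estimate below 0. RA and vehicle libraries did not overlap in IL4 cells for 41 of the 41, against 27.9% of all genes tested. In naive cells they did not overlap for 28 of the 41, against 28% of all genes tested. The 41 genes were picked by the interaction in these same libraries, which favours a higher RA effect in IL4 cells. The counts of raised, lowered and non-overlapping genes thus describe them and are no separate test.

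Most of the 41 genes were at their lowest in IL4 vehicle cells. The IL4 vehicle group had the lowest mean of the 4 groups for 30 of 41, against 27.8% of all genes tested, and the IL4 RA group had the highest mean for 24 of 41, against 23.6%. The IL4 effect in vehicle was called lower for 26 of 41, against 29.6% of all genes tested, and higher for 7, against 30.5%. The genes higher with IL4 included Ltbp3, Palld, Inf2 and Rai14. With RA present the IL4 effect was called lower for 15, against 26.7%, and higher for 21, against 29%. These levels come from the same libraries as the interaction, which favours genes low in IL4 vehicle or high in IL4 RA, so they describe the genes and are no separate test.

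The count of 46 became 15 when the spread was moderated without the intensity trend, 103 with library weights, and 17 to 67 when each library was left out in turn. Without any 1 library, 15 genes stayed called. Of the 41 positive genes 20 were called in 6 or more of the 12 fits that left out 1 library, and of the 5 negative genes 2. Adgre5 and Cebpe were called in 2 of these fits and Ltbp3 in 3. The calls of Cebpe, Nrip1 and Ltbp3 were lost without the intensity trend. The call of Ctdsp1 was lost in each of the 12 fits, and Pigz, 6430548M08Rik, Retreg1, Slc8b1, Metrnl, Fnbp1 and Slc30a1 were each called in 1 of the 12.

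**Figure D2:**
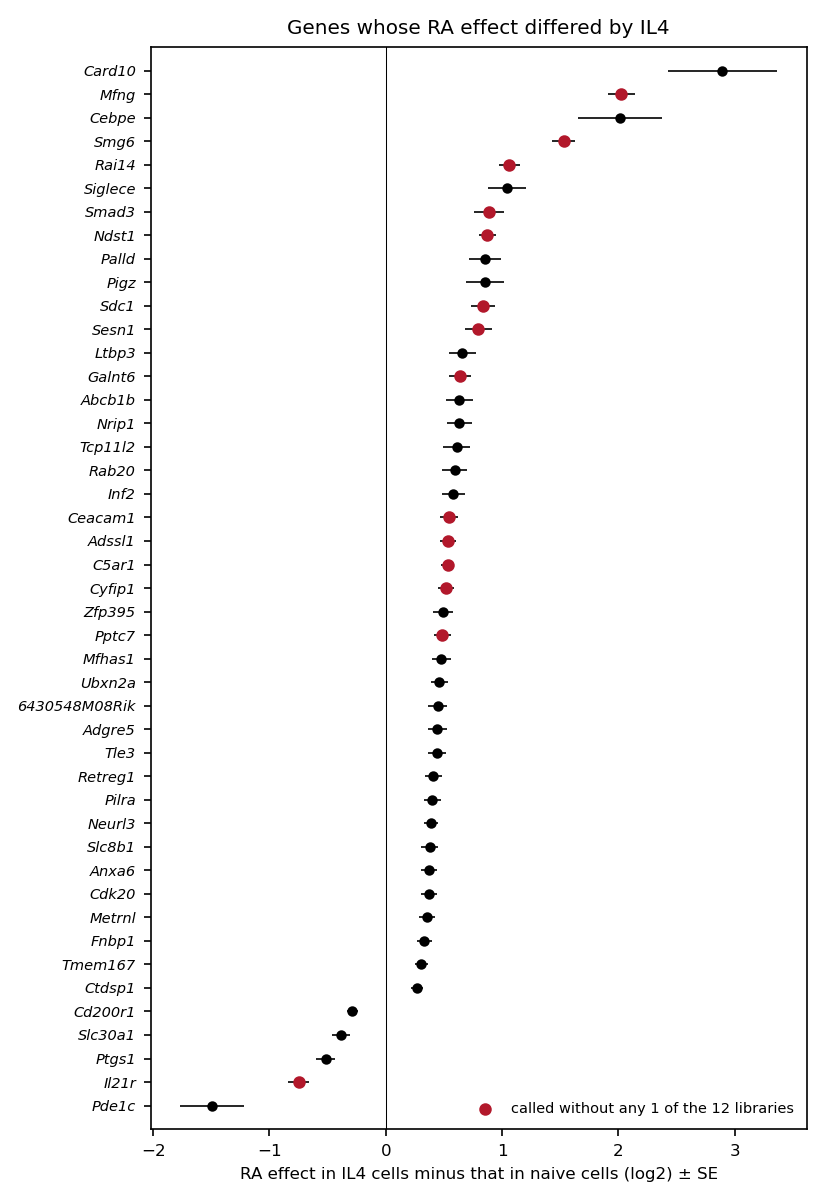
Interaction (IL4 minus naive RA effect, log2) with its SE for the called genes reported here, n = 3 libraries per group. Red points mark genes, among them Mfng at 2.03, Smg6 at 1.53 and Il21r as the negative one, that stayed called when any 1 of the 12 libraries was left out.

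The called genes are described below in groups by what they encode; these groups were formed after the calls were known and were not tested. Mfng encodes manic fringe, a glycosyltransferase that modifies Notch receptors and so changes which ligands they answer to. Mfng (Entrez 17305, chromosome 15, 78755882 to 78773516, minus strand, GRCm38) had 4.40, 4.58 and 4.27 log2 CPM in IL4 RA, 1.89, 1.84 and 1.92 in IL4 vehicle, 3.18, 3.26 and 3.32 in naive RA and 2.69, 2.77 and 2.78 in naive vehicle libraries. No 2 groups overlapped, IL4 RA was highest and IL4 vehicle lowest. The RA effect was 2.53 in IL4 cells and 0.51 in naive cells, both called, and the interaction was 2.03 (SE 0.11, adjusted p = 1.9e-06). It was the only called member among 15 tested Notch pathway genes, whose median interaction was 0.08.

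Card10, which encodes a scaffold protein that links receptors to NF-kB, is the next tested gene on the same strand. It lies 1606 bases beyond Mfng, on the side of the Mfng start (chromosome 15, 78775123 to 78803072). Card10 had 1.38, 1.43 and 1.12 log2 CPM in IL4 RA, -2.03, -2.28 and -2.31 in IL4 vehicle and -3.24, -3.25 and -2.67 in naive RA libraries, and every naive vehicle library held the shared minimum of the table, -3.67. That value stands for a count of 0 plus a prior, so no fold is given for naive cells, and the interaction of 2.90 (SE 0.47, adjusted p = 0.021) depends on the prior. Card10 reached 0 log2 CPM in the 3 IL4 RA libraries and in no other, so it passed the filter on low values only through the group in which it is high, and its call is given as a description. On the linear scale RA added 2.26 CPM in IL4 cells and 0.042 CPM in naive cells. Among the 46 called genes, 1 other pair lay within 100000 bases of each other with no tested gene between them, Inf2 and Adssl1 (chromosome 12, 4489 bases apart, both on the plus strand), described below. Whether reads pass from one gene of a pair into the next was not tested.

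Smg6 encodes an endonuclease of nonsense-mediated mRNA decay. Smg6 (Entrez 103677, chromosome 11, 74925854 to 75164448, plus strand) had 6.06, 6.26 and 6.06 log2 CPM in IL4 RA, 4.34, 4.52 and 4.54 in IL4 vehicle, 4.71, 4.84 and 4.74 in naive RA and 4.69, 4.54 and 4.67 in naive vehicle libraries. The IL4 RA libraries lay far above the other 9, and the naive RA libraries just above the naive vehicle ones. The RA effect was 1.66 in IL4 cells and 0.13 in naive cells (adjusted p = 0.34), with an interaction of 1.53 (SE 0.10, adjusted p = 5.8e-06). Smg6 overlaps Hic1, which encodes a transcriptional repressor and lies on the opposite strand (chromosome 11, 75161377 to 75170255), by 3072 bases at the ends of both genes. Hic1 had 4.18, 4.32 and 4.07 log2 CPM in IL4 RA, -0.01, -0.43 and -0.20 in IL4 vehicle, 0.51, 1.05 and 0.81 in naive RA and -2.82, -2.06 and -2.17 in naive vehicle libraries. RA raised Hic1 by 4.40 in IL4 cells and by 3.14 in naive cells, and the interaction of 1.26 (SE 0.30, adjusted p = 0.14) was not called. RA added 47.8 CPM to Smg6 and 17.4 CPM to Hic1 in IL4 cells, against 2.33 and 1.53 CPM in naive cells. The kit keeps strand, but whether the counting used it is not given in the sources used here. Reads in the 3072 shared bases therefore cannot be assigned to 1 of the 2 genes, and their part in either level was not tested. Of the 46 called genes, 10 overlapped another tested gene, with 12 partners in all, none of which had a called interaction on the log2 scale. On the linear scale Hic1 had a called difference, given below. How many of all genes tested overlap another was not counted, so the 10 are a description.

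**Figure D3:**
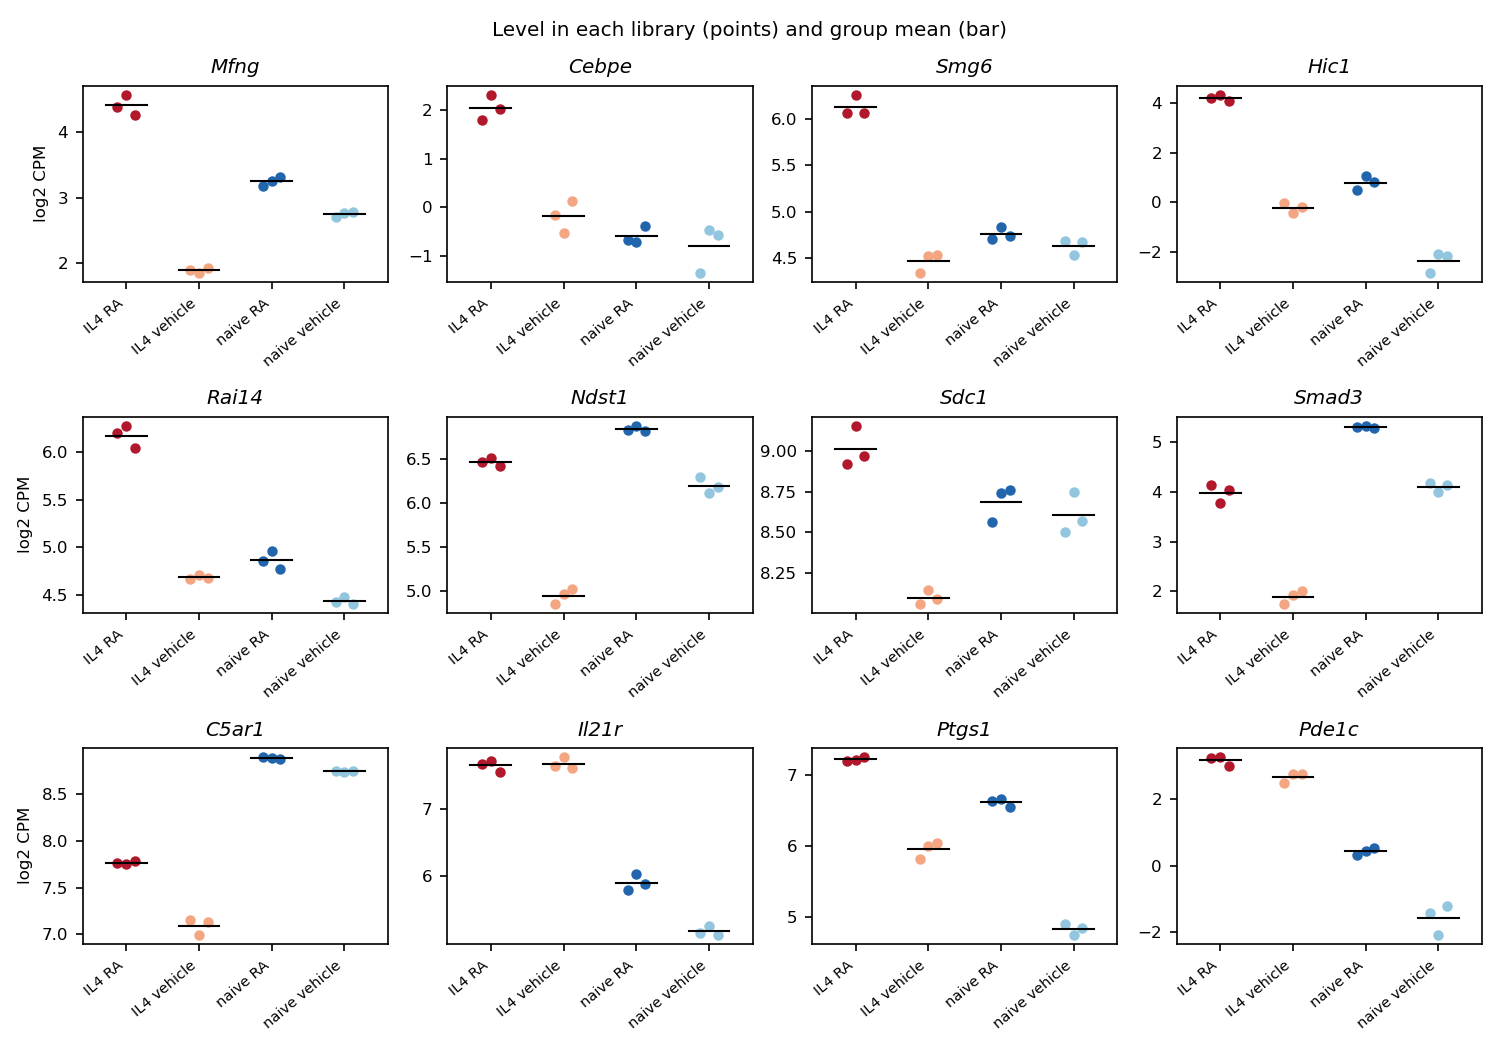
Level (log2 CPM, each panel with its own axis) in each of the 12 libraries, with the group mean as a bar, for 12 genes. In the panels of Mfng, Smg6, Rai14 and Cebpe the IL4 RA libraries stand above the other groups, in those of Ndst1, Sdc1, Smad3 and C5ar1 the IL4 vehicle libraries stand below them, and in the Il21r panel RA and vehicle overlap in IL4 cells only.

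Among transcription factors and cofactors, Cebpe, Smad3, Nrip1, Tle3 and Zfp395 had called interactions. Cebpe encodes C/EBP epsilon, a factor of granulocyte maturation that RA is known to induce in myeloid precursors. Cebpe (Entrez 110794, chromosome 14, 54710363 to 54712174, minus strand) had 1.79, 2.30 and 2.02 log2 CPM in IL4 RA, -0.15, -0.52 and 0.12 in IL4 vehicle, -0.66, -0.71 and -0.38 in naive RA and -1.34, -0.47 and -0.56 in naive vehicle libraries. All 3 IL4 RA libraries lay above the other 9, and RA and vehicle overlapped in naive cells. Its RA effect was 2.22 in IL4 cells and 0.21 in naive cells (adjusted p = 0.72), and the interaction was 2.01 (SE 0.36, adjusted p = 0.032). Cebpe reached 0 log2 CPM in the 3 IL4 RA libraries and 1 IL4 vehicle library, so it too passed the filter through its IL4 RA libraries. The interaction of Cebpe was called in 2 of the 12 fits that left out 1 library.

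Smad3 encodes a signal transducer of TGF-beta. Smad3 (Entrez 17127, chromosome 9, 63646766 to 63757994, minus strand) had 4.13, 3.77 and 4.04 log2 CPM in IL4 RA, 1.75, 1.92 and 2.01 in IL4 vehicle, 5.31, 5.33 and 5.30 in naive RA and 4.17, 4.00 and 4.15 in naive vehicle libraries. IL4 vehicle was far below the other groups, while IL4 RA overlapped naive vehicle. RA raised Smad3 by 2.09 in IL4 cells and by 1.20 in naive cells, with an interaction of 0.88 (SE 0.13, adjusted p = 0.011). On the linear scale the order turned round: RA added 12.1 CPM in IL4 cells and 22.5 CPM in naive cells, a called difference of -10.4 CPM (SE 2.08, adjusted p = 0.035). Smad3 was the only gene called on both scales with opposite signs. With Smad3, 6 of the genes called on the log2 scale had a linear difference of the opposite sign. For the others it was not called on the linear scale. It was -27.5 CPM for Neurl3, -9.09 for Siglece and -7.58 for Rab20, whose log2 interactions were positive. For Ptgs1 and Pde1c, whose log2 interactions were negative, it was 18.1 and 1.69 CPM.

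Nrip1, a corepressor of nuclear receptors and a known RA target, had an RA effect of 1.25 in IL4 cells and 0.62 in naive cells, both called, and an interaction of 0.63 (SE 0.11, adjusted p = 0.029). Tle3, a Groucho-type corepressor, had an RA effect of 0.56 in IL4 cells and 0.13 in naive cells and an interaction of 0.44 (SE 0.08, adjusted p = 0.030). For the zinc finger gene Zfp395 these values were 0.37, -0.12 and 0.49 (SE 0.09, adjusted p = 0.032). The receptor genes themselves were not among the called genes: the interaction was -0.01 for Rara (adjusted p = 0.98), 0.13 for Rarg (0.74) and 0.11 for Rxra (0.74).

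Ndst1, Sdc1, Galnt6 and Pigz encode proteins of glycan or membrane anchor synthesis or of the cell surface. Ndst1 encodes an enzyme that sulfates heparan sulfate chains, and Sdc1 encodes syndecan 1, a membrane proteoglycan that carries them. Ndst1 had 6.46, 6.51 and 6.43 log2 CPM in IL4 RA, 4.86, 4.97 and 5.03 in IL4 vehicle, 6.84, 6.88 and 6.82 in naive RA and 6.30, 6.12 and 6.19 in naive vehicle libraries. IL4 vehicle was lowest without overlap, and naive RA was highest. The RA effect was 1.52 in IL4 cells and 0.64 in naive cells, with an interaction of 0.87 (SE 0.07, adjusted p = 8.6e-05). Sdc1 (Entrez 20969, chromosome 12, 8771396 to 8793716, plus strand) had 8.92, 9.15 and 8.97 log2 CPM in IL4 RA, 8.06, 8.14 and 8.09 in IL4 vehicle, 8.56, 8.74 and 8.76 in naive RA and 8.50, 8.75 and 8.57 in naive vehicle libraries. RA and vehicle overlapped in naive cells and were far apart in IL4 cells. Its RA effect was 0.92 in IL4 cells and 0.08 in naive cells (adjusted p = 0.60), and the interaction was 0.84 (SE 0.10, adjusted p = 0.0034). Galnt6, which starts O-linked glycans, had RA effects of 0.58 in IL4 cells and -0.06 in naive cells and an interaction of 0.64 (SE 0.09, adjusted p = 0.0097). Pigz, an enzyme of GPI anchor synthesis, had RA effects of 1.02 and 0.16 in the same order and an interaction of 0.85 (SE 0.16, adjusted p = 0.044).

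Surface receptors with a positive interaction were C5ar1, Siglece, Ceacam1, Adgre5 and Pilra. C5ar1 encodes a receptor for a complement anaphylatoxin. C5ar1 (Entrez 12273, chromosome 7, 16246743 to 16259540, minus strand) had 7.76, 7.75 and 7.78 log2 CPM in IL4 RA, 7.15, 6.99 and 7.13 in IL4 vehicle, 8.90, 8.89 and 8.88 in naive RA and 8.75 in each of the naive vehicle libraries. No groups overlapped, and both IL4 groups were below both naive groups. RA raised C5ar1 by 0.67 in IL4 cells, against 0.14 in naive cells (adjusted p = 0.051), and the interaction was 0.53 (SE 0.06, adjusted p = 0.00083). Siglece, an inhibitory receptor for sialic acids, had 5.39, 5.08 and 5.05 log2 CPM in IL4 RA, 3.91, 3.59 and 3.37 in IL4 vehicle, 6.81, 6.75 and 6.82 in naive RA and 6.34, 6.17 and 6.35 in naive vehicle libraries. It followed the same order of groups as C5ar1. RA raised Siglece by 1.55 in IL4 cells and by 0.51 in naive cells, with an interaction of 1.04 (SE 0.16, adjusted p = 0.018). RA raised the adhesion receptor gene Adgre5, which encodes CD97, by 1.56 in IL4 cells and by 1.11 in naive cells (interaction 0.44, SE 0.08, adjusted p = 0.032), and the inhibitory receptor gene Pilra by 0.84 and 0.44 (interaction 0.40, adjusted p = 0.036). The adhesion molecule gene Ceacam1 had RA effects of 0.69 in IL4 cells and 0.15 in naive cells, the second not called (interaction 0.55, SE 0.08, adjusted p = 0.0095).

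Rai14, Palld, Rab20, Cyfip1, Fnbp1 and Anxa6 encode proteins that act at actin or at membranes. Rai14, named for its induction by RA in other cells, encodes an actin-associated ankyrin repeat protein. Rai14 (Entrez 75646, chromosome 15, 10568971 to 10719267, minus strand) had 6.20, 6.28 and 6.04 log2 CPM in IL4 RA, 4.66, 4.71 and 4.67 in IL4 vehicle, 4.86, 4.96 and 4.76 in naive RA and 4.42, 4.48 and 4.40 in naive vehicle libraries. IL4 RA stood above all other libraries. RA raised it by 1.49 in IL4 cells and by 0.43 in naive cells, with an interaction of 1.06 (SE 0.09, adjusted p = 8.5e-05). Palld, which encodes the actin cross-linker palladin, rose by 1.26 in IL4 cells and by 0.40 in naive cells (interaction 0.85, SE 0.14, adjusted p = 0.021). Rab20, a small GTPase of phagosome maturation, rose by 1.57 and 0.98 in the same order (interaction 0.59, adjusted p = 0.036). Cyfip1, a subunit of the WAVE actin regulator, had RA effects of 0.61 in IL4 cells and 0.09 in naive cells (interaction 0.52, SE 0.07, adjusted p = 0.0043). The interaction was 0.33 for the membrane-bending protein gene Fnbp1 and 0.37 for the annexin gene Anxa6, and neither had a called RA effect in naive cells.

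The genes that RA moved in opposite directions were Inf2 and Abcb1b. Inf2, a formin that assembles and severs actin filaments, had 7.40, 7.54 and 7.30 log2 CPM in IL4 RA, 6.97, 7.18 and 7.09 in IL4 vehicle, 6.23, 6.20 and 6.12 in naive RA and 6.51, 6.45 and 6.34 in naive vehicle libraries. RA was above vehicle in IL4 cells and below it in naive cells, in each case without overlap. The RA effects were 0.33 (adjusted p = 0.0061) in IL4 cells and -0.25 (0.049) in naive cells, and the interaction was 0.58 (SE 0.10, adjusted p = 0.023). Abcb1b, which encodes a P-glycoprotein drug efflux pump, had 5.96, 5.64 and 5.60 log2 CPM in IL4 RA, 5.53, 5.37 and 5.41 in IL4 vehicle, 5.69, 5.63 and 5.53 in naive RA and 5.99, 5.94 and 5.92 in naive vehicle libraries. Here too the libraries with and without RA did not overlap in either state. The RA effects on Abcb1b were 0.30 (adjusted p = 0.028) in IL4 cells and -0.33 (0.025) in naive cells, with an interaction of 0.63 (SE 0.11, adjusted p = 0.032). The Abcb1b call was kept in 4 and the Inf2 call in 7 of the 12 fits that left out 1 library.

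Among the remaining positive genes, Ltbp3, which encodes a latent TGF-beta binding protein, rose by 1.28 in IL4 cells and by 0.63 in naive cells (interaction 0.66, SE 0.12, adjusted p = 0.032). Ltbp3 and Smad3 were the called members among 33 tested TGF-beta and BMP signalling genes, whose median interaction was 0.05. Sesn1, a p53 target that restrains mTORC1, had RA effects of 0.76 in IL4 cells and -0.03 in naive cells (interaction 0.80, SE 0.11, adjusted p = 0.0095). Adssl1, an adenylosuccinate synthase of the purine nucleotide cycle, had 0.64 and 0.11 in the same order (interaction 0.54, SE 0.07, adjusted p = 0.0034), and the mitochondrial phosphatase gene Pptc7 had 0.48 and -0.01 (interaction 0.49, SE 0.07, adjusted p = 0.013). RA effects were called in both states for the ER-phagy receptor gene Retreg1 (interaction 0.41), the ubiquitin ligase gene Neurl3 (0.39), the mitochondrial exchanger gene Slc8b1 (0.38) and the phosphatase gene Ctdsp1 (0.27). They were called in IL4 cells alone for Tcp11l2 (0.61), Mfhas1 (0.48), Ubxn2a (0.46), 6430548M08Rik (0.45), the kinase gene Cdk20 (0.37), the secreted factor gene Metrnl (0.36) and Tmem167 (0.31).

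The 5 genes with a negative interaction were Pde1c, Il21r, Ptgs1, Slc30a1 and Cd200r1. Il21r encodes the receptor for interleukin 21. Il21r (Entrez 60504, chromosome 7, 125603252 to 125634397, plus strand) had 7.67, 7.72 and 7.56 log2 CPM in IL4 RA, 7.65, 7.78 and 7.61 in IL4 vehicle, 5.80, 6.04 and 5.88 in naive RA and 5.16, 5.27 and 5.13 in naive vehicle libraries. Both IL4 groups were high and overlapped, and RA was above vehicle in naive cells. RA raised Il21r by 0.72 in naive cells, while its effect in IL4 cells was -0.03 (adjusted p = 0.85), and the interaction was -0.75 (SE 0.09, adjusted p = 0.0034).

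Pde1c encodes a calmodulin-dependent cyclic nucleotide phosphodiesterase. Pde1c (Entrez 18575, chromosome 6, 56069798 to 56652510, minus strand) had 3.26, 3.29 and 3.01 log2 CPM in IL4 RA, 2.49, 2.77 and 2.76 in IL4 vehicle, 0.33, 0.43 and 0.53 in naive RA and -1.42, -2.09 and -1.21 in naive vehicle libraries. The groups did not overlap. RA raised Pde1c by 2.00 in naive cells, against 0.51 in IL4 cells (adjusted p = 0.12), with an interaction of -1.49 (SE 0.28, adjusted p = 0.037). The naive vehicle level was low, and Pde1c was called in 2 of the 12 fits that left out 1 library. Ptgs1 encodes cyclooxygenase 1. Ptgs1 (Entrez 19224, chromosome 2, 36216742 to 36258593, plus strand) had 7.20, 7.22 and 7.26 log2 CPM in IL4 RA, 5.82, 6.00 and 6.04 in IL4 vehicle, 6.64, 6.67 and 6.55 in naive RA and 4.90, 4.74 and 4.84 in naive vehicle libraries. No groups overlapped, and naive vehicle was lowest. RA raised Ptgs1 in both states, by 1.28 in IL4 cells and by 1.79 in naive cells (interaction -0.52, SE 0.08, adjusted p = 0.019).

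Slc30a1, which encodes a zinc exporter, and Cd200r1, an inhibitory receptor for CD200, were instead lowered by RA. Cd200r1 had 6.94, 6.92 and 6.99 log2 CPM in IL4 RA, 7.42, 7.40 and 7.38 in IL4 vehicle, 5.87, 5.87 and 5.81 in naive RA and 6.02, 6.02 and 6.00 in naive vehicle libraries. RA was below vehicle without overlap in both states. Cd200r1 fell by 0.45 in IL4 cells and fell by 0.16 in naive cells (interaction -0.29, SE 0.05, adjusted p = 0.025). Slc30a1 fell by 0.56 in IL4 cells, against -0.18 in naive cells (adjusted p = 0.066), with an interaction of -0.39 (SE 0.07, adjusted p = 0.049).

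Most of the known RA and IL4 genes had no called interaction. Of 14 tested RA-inducible genes, 9 rose in IL4 cells (6.5% of all genes tested did) and 7 in naive cells (3.24%). The interaction was called for 2 of the 14, Cebpe and Nrip1, against 0.338% of all genes tested in the positive direction. That share rests on 2 genes, and Cebpe passed the filter through its IL4 RA libraries. The list's median was 0.12. Rarb rose by 3.45 in IL4 cells and by 4.11 in naive cells (interaction -0.66, SE 0.32, adjusted p = 0.62). Cyp26b1 rose by 2.77 and 3.09 in the same order (interaction -0.32, adjusted p = 0.90). With quantile normalization both interactions turned positive (0.0016 and 0.69), as did that of Rarb with log2(CPM + 1), where it was called (0.84, adjusted p = 0.034). Tgm2, the transglutaminase, rose by 1.15 in IL4 cells and by 0.74 in naive cells, with an interaction of 0.41 (adjusted p = 0.10). The interaction was 0.24 for Retnla (adjusted p = 0.92), 0.23 for Chil3 (0.93) and 0.08 for the mannose receptor gene Mrc1 (0.88). For the cholesterol transporter genes it was 0.34 for Abca1 (0.24) and -0.27 for Abcg1 (0.54). Rarb, Cyp26b1, Hic1 and Arg1 in naive vehicle, and Retnla and Chil3 in all naive libraries, were near the shared minimum, where the log2 fold depends on the prior.

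The change was then taken on the linear scale, as the CPM that RA added to the group geometric mean, IL4 minus naive. By this measure 106 genes were called (0.875% of those tested), 69 higher (0.569%) and 37 lower (0.305%). Of these, 29 were called on both scales, 77 on the linear scale alone and 17 on the log2 scale alone. Of the 77, 39 had called RA effects in both states, all 39 with the same sign. Over all 12116 genes tested, 518 had called RA effects in both states, 516 of them with the same sign, so the shared sign is not particular to the 39. Of the 43 linear-only genes that were higher, 38 had a called higher level in IL4 vehicle than in naive vehicle, against 30.5% of all genes tested. The linear difference grows with the level of a gene in IL4 cells and comes from the same libraries as the RA effects. Both counts thus describe the genes and are no separate test.

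Arg1 was one such gene that had folds of like size in both states. Arg1 (Entrez 11846, chromosome 10, 24915207 to 24927470, minus strand) had 227, 280 and 227 CPM in IL4 RA, 63.3, 89.6 and 68.7 in IL4 vehicle, 0.634, 0.812 and 0.839 in naive RA and 0.185, 0.253 and 0.171 in naive vehicle libraries. RA was above vehicle in both states without overlap, with all naive libraries under 1 CPM. RA added 170 CPM in IL4 cells and 0.556 CPM in naive cells, a called difference of 170 CPM (SE 20.8, adjusted p = 0.0012). On the log2 scale the RA effects were 1.74 in IL4 cells and 1.92 in naive cells, and the interaction of -0.18 (SE 0.24, adjusted p = 0.88) was not called. With log2(CPM + 1) in place of the deposited values the Arg1 interaction was 1.17 (adjusted p = 0.0050) and with quantile normalization 0.18, so its direction depends on the scaling.

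Hic1 and Rarb were called in the same way. RA added 17.4 CPM to Hic1 in IL4 cells and 1.53 CPM in naive cells, a difference of 15.8 CPM (SE 1.94, adjusted p = 0.0012). Rarb had 8.90, 11.0 and 9.91 CPM in IL4 RA, 0.816, 1.17 and 0.782 in IL4 vehicle, 3.04, 2.82 and 2.23 in naive RA and 0.135, 0.214 and 0.129 in naive vehicle libraries, and RA added 9.0 CPM in IL4 cells and 2.52 CPM in naive cells, a difference of 6.48 CPM (SE 1.15, adjusted p = 0.017). The retinaldehyde reductase gene Dhrs3 gained 150 CPM in IL4 cells and 88.0 CPM in naive cells, a difference of 61.9 CPM (adjusted p = 0.0073). The annexin gene Anxa3 had a difference of 173 CPM (SE 17.1, adjusted p = 0.00020), the receptor phosphatase gene Ptprs 76.3, Plxdc2 52.9 and the chemokine gene Cxcl14 39.4 CPM. The log2 interactions of these 4 genes were 0.18, 0.45, -0.05 and -0.19, none of them called. Among the other genes named on the log2 scale, Sdc1 gained 243 CPM in IL4 cells and 22.6 CPM in naive cells, and Cyfip1 185 and 31.8 CPM.

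In the lower direction, Bmp2, which encodes a bone morphogenetic protein, had 16.0, 13.2 and 14.2 CPM in IL4 RA, 2.40, 2.05 and 1.96 in IL4 vehicle, 53.7, 62.3 and 60.3 in naive RA and 6.51, 6.93 and 6.17 in naive vehicle libraries. RA added 12.3 CPM in IL4 cells and 52.1 CPM in naive cells, a difference of -39.9 CPM (SE 2.85, adjusted p = 1.0e-05), while the log2 effects were 2.76 and 3.17 (interaction -0.41, adjusted p = 0.39). The adaptor gene Pram1 gained 11.1 and 27.7 CPM (difference -16.5 CPM) although its log2 interaction was 0.35. Fam102a gained 5.92 CPM in IL4 cells and 26.0 CPM in naive cells. Pfkp, a phosphofructokinase gene, lost more CPM in IL4 cells (-59.8) than in naive cells (-7.54), as did Olfm1 (-20.1 and -3.79). Named after their values were seen, the inflammatory genes Nos2 and Ptgs2 had linear differences of -36.6 CPM (adjusted p = 0.046) and -46.7 CPM (0.0092), with IL4 vehicle levels of 64.6 and 95.2 CPM and naive vehicle levels of 2.66 and 8.86 CPM. Their log2 interactions, -0.82 and -0.37, were not called. Other inflammatory genes went the other way, with linear differences of 34.6 CPM for Cxcl2 (adjusted p = 0.047) and 27.0 CPM for Cxcl3 (0.0053). Of 36 classical inflammatory genes tested, 2 were called higher and 2 lower on the linear scale, against 0.569% and 0.305% of all genes tested.

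**Figure D4:**
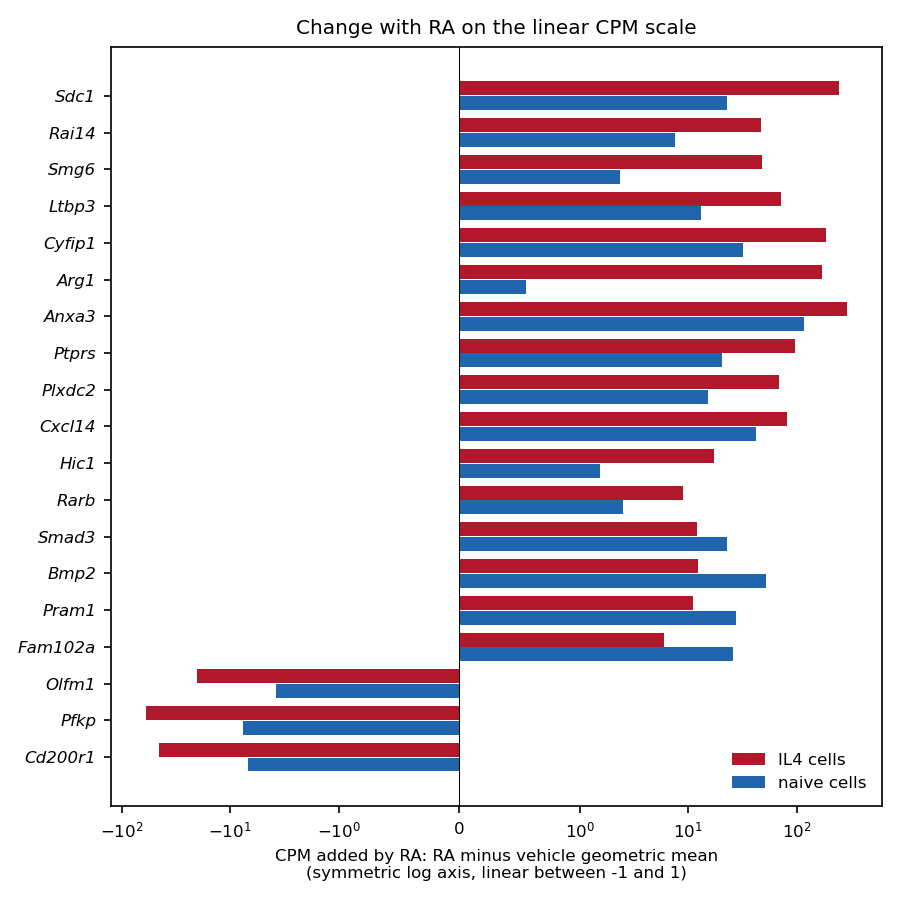
CPM added by RA (RA minus vehicle geometric mean, n = 3 libraries per group; symmetric log axis) in IL4 cells (red) and naive cells (blue) for 19 genes. Arg1 gained 170 CPM in IL4 cells and 0.556 in naive cells, while Smad3, Bmp2, Pram1 and Fam102a gained more in naive cells.

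The other pathways were described by 22 gene lists. The interaction was called for 2 of 14 RA-inducible, 2 of 33 TGF-beta and BMP, 1 of 25 matrix (Sdc1) and 1 of 15 Notch pathway genes in the positive direction, and for 1 of 37 alternative activation and 1 of 20 eicosanoid genes in the negative direction, Ptgs1 both times. Over all genes tested the shares were 0.338% in the positive and 0.0413% in the negative direction, and with 1 or 2 called members a list's share rests on those genes alone. No member of the other 16 lists was called. The medians of 26 cholesterol biosynthesis genes (0.14, 23 positive) and 29 glycolysis and hypoxia genes (0.13, 23 positive) were the highest, against 0.0074 over all genes. Single libraries moved both: the glycolysis median was 0.051 without IL4 RA library 3, below the 0.11 of the RA-inducible list in that fit, and the cholesterol biosynthesis median was 0.090 without naive vehicle library 2 and 0.21 without naive vehicle library 3.

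Interferon genes had the lowest medians without a single call. The median interaction was -0.55 for 20 interferon-inducible GTPases, all 20 negative, -0.35 for 49 type I interferon-stimulated genes, all 49 negative, and -0.34 for 24 interferon-gamma signalling genes, 19 negative. Single libraries moved these medians: leaving out library 4 of naive RA gave -0.21 for the type I genes (47 negative) and -0.22 for the interferon-gamma genes. The type I median was -0.56 without library 2 of naive RA and -0.23 without library 2 of naive vehicle. In IL4 cells RA lowered 6 of the 20 GTPases, 1 of the 49 and 8 of the 24, against 5.18% of all genes tested, so the type I count was under the background share. In naive cells RA lowered 0, 0 and 1, against 3.03%. At an unadjusted p under 0.05 the interaction counted 5, 6 and 15 members, against 8.3% of all genes. Cxcl9, an interferon-gamma-induced chemokine, had 2.54, 2.57 and 2.15 log2 CPM in IL4 RA, 4.59, 4.39 and 3.22 in IL4 vehicle, -0.18, 0.16 and 0.26 in naive RA and -0.36, 0.45 and 0.07 in naive vehicle libraries. The IL4 groups did not overlap and the naive groups did, and the interaction was -1.68 (SE 0.43, adjusted p = 0.17). Gbp4, a guanylate-binding protein gene, had 3.57, 3.71 and 3.52 log2 CPM in IL4 RA, 5.58, 5.67 and 4.13 in IL4 vehicle, 1.85, 2.54 and 2.31 in naive RA and 1.98, 2.74 and 2.07 in naive vehicle libraries, with an interaction of -1.50 (SE 0.47, adjusted p = 0.35). The transcription factor gene Irf1 had an interaction of -0.57 (adjusted p = 0.14) and a called linear difference of -110 CPM (adjusted p = 0.044).

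The libraries of a group were spread widely in these genes. The median SD within a group was 0.106 in IL4 RA, 0.292 in IL4 vehicle, 0.395 in naive RA and 0.245 in naive vehicle for the GTPases, and 0.0955, 0.177, 0.380 and 0.276 in the same order for the type I genes. Naive RA library 2 had a median GTPase level of 4.74 log2 CPM, against 5.61 and 5.71 in the other naive RA libraries. Library 2 was also lowest in naive vehicle, at 4.90 against 5.63 and 5.32. In IL4 vehicle the low library was library 4. It was the lowest of its group for 20 of 20 GTPases, 48 of 49 type I genes and 19 of 24 interferon-gamma genes, by a median of -0.46, -0.27 and -0.23 (log2) against the mean of libraries 2 and 3. It was still above all IL4 RA libraries for 15 of 20, 31 of 49 and 14 of 24. The median SE of the interaction was 0.267 for the GTPases, 0.242 for the type I genes and 0.140 for the interferon-gamma genes, against 0.0957 for all genes. Without IL4 vehicle library 4 the interaction was called for 67 genes in all, among them Gbp4, Gbp8 and Tgtp1 of the GTPases (list median -0.71) and Cxcl9, Irf1 and Socs1 of the interferon-gamma genes, all negative, and for none of the 49 type I genes.

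**Figure D5:**
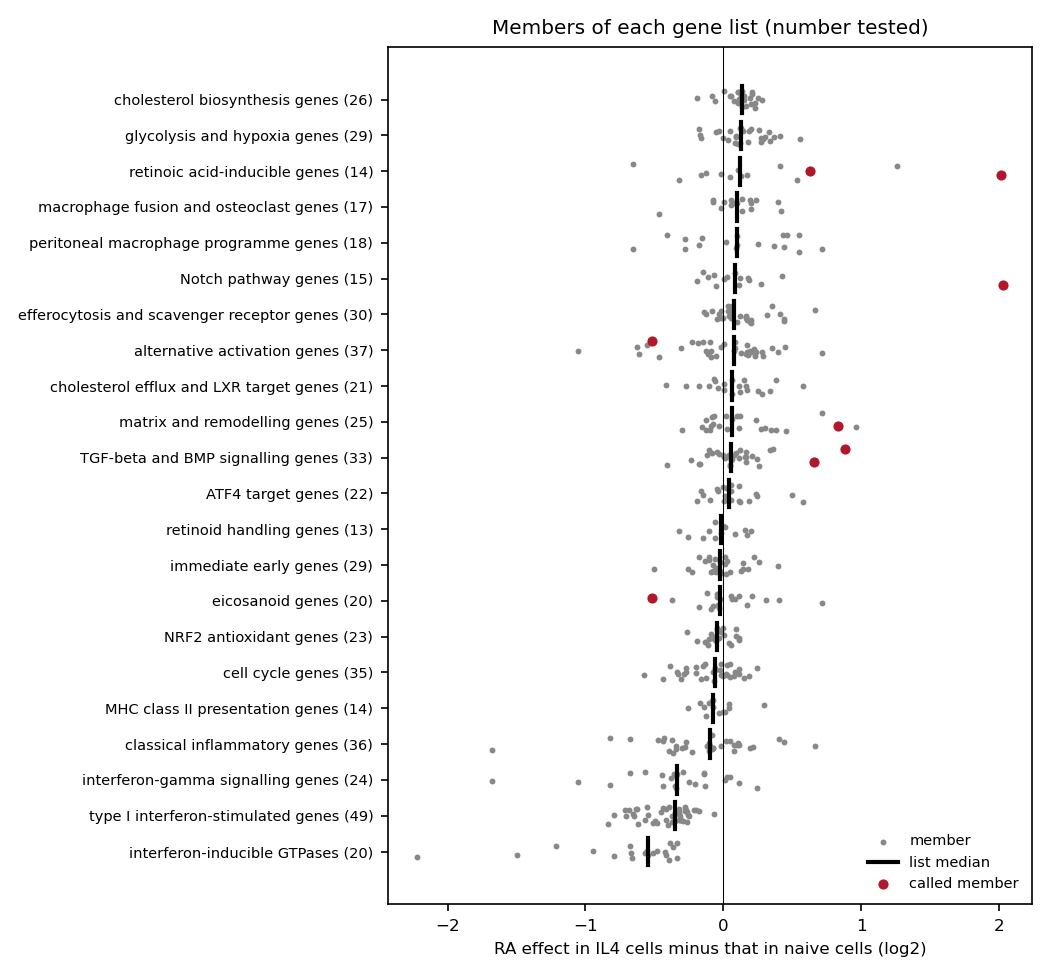
Interaction (log2) of every tested member of the 22 gene lists, with the list median as a bar and called members in red. The interferon lists lie left of 0, with medians of -0.55, -0.35 and -0.34, and hold no called member.

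The sequence upstream of the called genes was searched for known binding motifs, because both signals act through DNA-bound factors. RefSeq windows of 250 bases before a start (GRCm38.p6) were matched for 35 of the 46 genes, 49 windows in all, on both strands. The STAT6 palindrome with a spacer of 4 bases was found in 1 window (2.04%, against 4.84% of the 12287 windows of all tested genes), the gamma-activated spacing TTCNNNGAA in 3 (6.12% against 5.98%) and the nuclear receptor core AGGTCA, which lies inside longer RA response elements, in 5 (10.2% against 10.9%). The direct repeats with a spacer of 5 or 2 bases and the C/EBP motif TTGCGCAA were in 0 of the 49. They were also rare in the windows of all tested genes, at 0.0326%, 0.0651% and 0.252%, so 0 of 49 says little. The gamma-activated and AGGTCA shares were close to those of all tested genes, the STAT6 share rests on 1 window, and a match is only a match of letters. A window for each motif found is shown, from genes whose window lies outside the annotated gene, 5′ to 3′ on the gene's strand with the match in capitals. The Adssl1 window (chr12:112619797-112620046, plus strand) lies between Inf2 and Adssl1, with the core 69 bases before the start. The Tcp11l2 window (chr10:84576697-84576946, plus strand) has the STAT6 spacing and the Palld window (chr8:61902708-61902957, minus strand) the gamma-activated spacing.
Adssl1: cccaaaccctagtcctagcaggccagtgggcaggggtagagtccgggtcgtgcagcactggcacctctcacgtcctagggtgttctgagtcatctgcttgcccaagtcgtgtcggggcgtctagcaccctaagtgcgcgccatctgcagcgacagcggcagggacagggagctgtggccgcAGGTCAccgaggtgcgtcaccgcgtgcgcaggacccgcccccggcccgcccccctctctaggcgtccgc
Tcp11l2: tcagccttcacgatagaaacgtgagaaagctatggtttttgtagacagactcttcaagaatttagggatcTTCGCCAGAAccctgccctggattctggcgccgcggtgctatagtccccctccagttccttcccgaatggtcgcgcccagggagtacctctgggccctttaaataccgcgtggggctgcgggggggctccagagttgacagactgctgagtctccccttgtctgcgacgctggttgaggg
Palld: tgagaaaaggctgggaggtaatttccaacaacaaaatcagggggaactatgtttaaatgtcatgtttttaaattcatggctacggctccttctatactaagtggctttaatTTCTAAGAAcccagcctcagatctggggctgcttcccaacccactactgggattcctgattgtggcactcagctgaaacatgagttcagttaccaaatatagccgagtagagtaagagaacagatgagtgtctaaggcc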

How the data were processed

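Stranded poly(A) libraries (TruSeq) of 12 samples were sequenced on 1 NovaSeq lane. Per the submitters' processing notes, bcl2fastq 2.20, Salmon 0.13.1 and edgeR 3.32.1 were used with GRCm38. The deposited values are log2 CPM scaled by the authors with TMM factors, with a small prior count added; whether counting used strand is not given in the sources used here. All libraries share the lowest value, -3.67 (0.0783 CPM), and with no counts the depth is unknown. From these log2 values 1 limma 3.58.1 model (R 4.3.3; 1 mean per group, intensity trend, two-sided) was fitted to 12116 genes, and p-values were adjusted by Benjamini-Hochberg over all of them within each contrast; adjusted p under 0.05 was called. No pseudocount was added. The linear test took the difference of differences of the group geometric means in CPM, with a delta-method SE from the same fit. The model was tested on simulated data. Positions are from RefSeq (GRCm38.p6) and strands from GENCODE.

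The members, lists and tests were chosen with earlier results of these data known. Named genes were, per direction, the 12 largest called interactions with a group mean of at least 2 log2 CPM, up to 6 genes with opposite RA effects, up to 3 called members per list, 5 linear-scale genes per direction, and a fixed set of RA and IL4 genes. Of the called genes, 1 counted among the 46 is not reported here. The rule named 20 of the 46 called genes, and the others printed were named after their values were seen, as were list members without a call. Alternatives were other filters, centring, quantile normalization, log2(CPM + 1), no trend, robust moderation, library weights, a replicate block, arithmetic CPM means, and leaving out each library.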

Additional observations from a re-analysis of the deposited data

Results flagged for a closer look

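The RA effect differed between IL4 and naive cells, by limma's test of the interaction over all genes, for 46 genes. The values are log2 differences, IL4 minus naive. Those with an RA effect called up in both states included Mfng (2.03), Rai14 (1.06), Siglece (1.04), Smad3 (0.88), Ndst1 (0.87), Palld (0.85), Ltbp3 (0.66), Nrip1 (0.63), Rab20 (0.59), Adgre5 (0.44), Retreg1 (0.41), Pilra (0.40), Neurl3 (0.39), Slc8b1 (0.38) and Ctdsp1 (0.27).

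Those called up in IL4 cells and not called in naive cells were Card10 (2.90, with naive vehicle at the lowest value), Cebpe (2.01), Smg6 (1.53), Pigz (0.85), Sdc1 (0.84), Sesn1 (0.80), Galnt6 (0.64), Tcp11l2 (0.61), Ceacam1 (0.55), Adssl1 (0.54), C5ar1 (0.53), Cyfip1 (0.52), Zfp395 (0.49), Pptc7 (0.49), Mfhas1 (0.48), Ubxn2a (0.46), 6430548M08Rik (0.45), Tle3 (0.44), Anxa6 (0.37), Cdk20 (0.37), Metrnl (0.36), Fnbp1 (0.33) and Tmem167 (0.31). Opposite directions were found for Abcb1b (0.63) and Inf2 (0.58).

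The interaction was negative for Pde1c (-1.49), Il21r (-0.75), Ptgs1 (-0.52), Slc30a1 (-0.39) and Cd200r1 (-0.29).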

How the results depend on the processing

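All 46 called genes kept their direction under every setting in which they were fitted. The 46 calls became 15 (14 higher, 1 lower) without the intensity trend, 103 (79 and 24) with library weights and 78 (67 and 11) with the replicate block, and the 106 linear calls became 67 (21 lower) without the trend and 208 (111 and 97) with weights. The cause was not tested. Without each library in turn, 17 to 67 genes were called (16 to 50 higher, 1 to 17 lower); on the linear scale 56 to 126 (37 to 74 higher, 16 to 52 lower). On the log2 scale the fewest were called without naive RA library 3 and the most without IL4 vehicle library 4; on the linear scale it was IL4 RA library 3 and naive RA library 2. Of the 46, 15 stayed called without any 1 library. Filters, centring, quantile normalization, log2(CPM + 1) and robust moderation gave 43 to 57 calls.

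Same-numbered libraries deviated together in 14 of 18 comparisons (r over 0.1; lowest 0.0102, highest 0.51), and 12 of 12 libraries were closest to their own number. This is a hint from the data, not the design, so the numbers were not taken to pair the samples; with the replicate block all 46 genes stayed called and 159 were called on the linear scale (108 higher, 51 lower).

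Uncalled interactions changed sign for Arg1 with quantile normalization (0.18) and log2(CPM + 1) (1.17), Rarb (0.0016 and 0.84), Cyp26b1 with quantile normalization (0.69), Chil3 without naive RA library 4 (-0.25; range over left-out libraries -0.25 to 0.57), and Retnla without that library (-0.0017) or without naive vehicle library 3 (range -0.093 to 0.52). All have naive libraries near the lowest value. Hic1 passed the threshold with quantile normalization (1.85), log2(CPM + 1) (2.18) and library weights (1.36), and also without naive vehicle library 2. With 3 libraries per group and a median SE of 0.0957, the smallest called interaction was 0.27.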
